A study of Homo sapiens with 2 samples.

Results

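Guides against the subunits of the oxidative phosphorylation machinery were followed through a pooled CRISPR knockout screen for transcriptional readthrough (TRT). They were picked by gene symbol alone, as every row of the guide count table whose target was named as an NDUF subunit of complex I, one of the SDH genes of complex II, a UQCR gene or CYC1 of complex III, a COX4 to COX8 subunit of complex IV, or an ATP5 gene of complex V. This gave 532 guides against 89 genes, out of 123411 guide rows in all and 114123 rows for protein-coding genes. Each of 88 genes had 6 guides, and ATP5E had 4. Complex I accounted for 39 genes and 234 guides, complex II for 4 and 24, complex III for 10 and 60, complex IV for 17 and 102, and complex V for 19 and 112. Guides are named below by their target and, where needed, their library identifier, since the tables used here pair no guide with its sequence.

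The cells were SK-OV-3, an established human ovarian cancer line, stably carrying a dual-fluorescence reporter in a lentiviral vector with an EF1a promoter, in which mCherry and EGFP replaced most of the coding sequence of COMMD3 and of its downstream neighbour BMI1. EGFP was therefore made only by transcripts that ran through the stretch between both genes. Lentivirus of the GeCKO v2.0 pool was added at a low multiplicity (about 0.3 per cell), followed by puromycin at 2 μg/mL. One group was the unsorted population and the other the TRT-negative cells (mCherry+ EGFP-), and both carried the same reporter, pool and selection. The title of the unsorted sample names both colours and could also describe a double-positive sort; the study's account of an unsorted counterpart was followed here, and all ratios depend on it.

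Each condition had 1 library, with 12882989 reads for the unsorted and 12444427 for the TRT-negative cells. There was thus no replicate check, no difference between the conditions or between sets of guides was tested, and guides against a gene were not taken as replicates. The spread of the 1000 non-targeting guides, designed to match no human gene, served as the yardstick. These guides were read more often than targeting guides, 17.7% of them before and 35.6% after the sort, and each is listed in both sub-libraries of the pool, so their detection is not a fair reference. Intervals on shares are exact Clopper-Pearson 95% intervals and cover counting error only, as PCR reads are not independent molecules. Guide DNA alone was sequenced, so neither the knockouts, the mitochondrial phenotype nor the identity of the line could be checked against expressed genes.

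Oxidative phosphorylation is carried out in the inner mitochondrial membrane. Complexes I and II pass electrons from NADH and succinate to ubiquinone, complex III passes them on to cytochrome c and complex IV to oxygen, while complexes I, III and IV pump protons whose return through complex V, the ATP synthase, drives ATP formation. Most subunits are encoded in the nucleus, and some complex IV and complex I subunits have isoforms restricted to particular tissues or conditions. Cultured cancer cells can make much of their ATP by glycolysis but still use the respiratory chain to regenerate the oxidised cofactors needed for aspartate and nucleotide synthesis.

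Guides against the respiratory machinery were sparse in both populations. Of the 532 guides, 42 had at least 1 read in the unsorted library (7.89%, interval 5.75% to 10.5%), against a background of 10.5% over all protein-coding guides. In the TRT-negative library 116 were read (21.8%, interval 18.4% to 25.6%), where the background was 22.6%. Both libraries shared 41 guides, 75 were read only after the sort (14.1%, interval 11.3% to 17.3%, background 12.6%), 1 was read only before it, and 415 were never read (78.0%, against 76.9% of all protein-coding guides). By gene, 36 of 89 had a guide in the unsorted library (40.4%, background 46.9%) and 70 had one in either library (background 77.9%). The share of member guides seen before the sort lay below the background by value, with the background at the upper edge of the interval, and the share seen after it lay close to the background.

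No read was obtained for any guide of 19 genes (21.3%, against 22.1% of all protein-coding genes). In complex I these were NDUFA3, NDUFA6, NDUFB4, NDUFC2, NDUFV3 and the readthrough locus NDUFC2-KCTD14. In complex II it was SDHC, and in complex III CYC1 (cytochrome c1), UQCRC1 and UQCRQ. In complex IV they were COX6B1, COX6C, COX7A2, COX7C and COX8C, and in complex V ATP5C1 (the gamma shaft of the F1 motor), ATP5G1, ATP5H and ATP5I. Nothing can be said of these knockouts from the present libraries. At the other end, NDUFB1, a small membrane-arm subunit of complex I, was the only gene with 4 guides read after the sort, and 6 genes had 3.

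For each guide the log2 ratio of TRT-negative to unsorted normalised counts was taken with 1 added to both. Enrichment was called for ratios past the 95th percentile of the non-targeting rows, 5.93 on that scale, which a guide without unsorted reads reached with 60 TRT-negative reads. The call was met by 18 of the 532 guides (3.38%, interval 2.02% to 5.29%), against a background of 2.87% of protein-coding guides. All 18 had no unsorted read and each belonged to a different gene, so that 18 of 89 genes (20.2%) had an enriched guide where the background was 16.0%, and 0 had more than 1 where the background was 1.15%. These shares stood near the background. Just inside the threshold lay NDUFA9 with 60 TRT-negative reads, ATP5O with 62 and NDUFB6 with 64, and just outside it NDUFA13 with 58, UQCRC2 with 56, and NDUFB3 and COX4I2 with 55 each. The median log2 ratio over all guides was 0.00 for the members and for all protein-coding guides, since most were unread.

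A second view came from the 37 member guides with at least 30 unsorted reads, called well-read below, for which a ratio of 2 measured counts exists. The median of their log2 ratios was -0.33 (SD over guides 1.20), with 15 above 0 and 22 below. The median was -0.64 (SD 1.40) over all 10616 well-read protein-coding guides and -0.89 (SD 1.33) over the 156 non-targeting guides that were well-read. The central 95% of those non-targeting guides ran from -2.73 to 1.91. Only 2 member guides lay above this range (5.41%, interval 0.661% to 18.2%, background 5.66%) and 1 below it (2.70%, interval 0.0684% to 14.2%, background 3.75%). By value the SD of the well-read members, 1.20, was below the 1.33 of the non-targeting guides. It was 1.53 in complex I, 1.00 in complex III, 0.840 in complex IV and 0.735 in complex V. These spreads were not tested. The 3 outlying guides, against NDUFB8, NDUFA7 and NDUFA11, all belonged to complex I, which held 18 of the 37 well-read guides. Within complex I, 2 of 18 lay above the range (11.1%, interval 1.38% to 34.7%) and 1 below it (5.56%, interval 0.141% to 27.3%). Both intervals contained the background.

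Complex I, the NADH dehydrogenase, was the largest group. Of its 234 guides 21 were read before the sort (8.97%, interval 5.64% to 13.4%) and 62 after it (26.5%, interval 21.0% to 32.6%), and 10 were enriched (4.27%, interval 2.07% to 7.72%). Both of the latter intervals contained the background. By value both shares were the highest of the 5 complexes, but for the enriched share this did not hold in sub-library A, where complex I stood at 2.56%, complex III at 3.33% and complex IV at 3.92%, or with NDUFA4 and NDUFA4L2 counted as complex IV. Its 7 catalytic core genes carry the flavin and the iron-sulfur clusters or shape the ubiquinone site. Of their 42 guides 4 were read before the sort (9.52%, interval 2.66% to 22.6%, background 10.5%). After it 13 were read (31.0%, interval 17.6% to 47.1%, background 22.6%), and 1 was enriched (2.38%, interval 0.0603% to 12.6%). The 32 other genes, accessory subunits for the most part, had 9 of 192 guides enriched (4.69%, interval 2.17% to 8.71%). For core and other genes alike the interval of the enriched share contained the background of 2.87%.

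Among the core genes, 4 had a well-read guide. For NDUFS1, the large iron-sulfur subunit, 1044 unsorted reads stood against 359 TRT-negative reads, and another guide had 0 and 33. For NDUFS3, part of the ubiquinone-reducing arm, the counts were 242 and 185, beside a guide with 0 and 50. The NDUFV2 guide stayed level at 439 and 411 reads, with a further guide at 0 and 35. NDUFS8, which holds iron-sulfur clusters on the way to ubiquinone, had a guide with 65 and 32 reads. Its enriched guide had 0 and 74, which is 25.6-fold above a floor of 3 unsorted reads. This floor covers read sampling only, so such folds are no lower limits on a change. All 4 well-read core guides thus had ratios below 0, between -1.48 and -0.04, well within the non-targeting range, where 6990 of all 10616 well-read protein-coding guides were likewise below 0.

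Other core genes had reads only after the sort. NDUFS7, which carries the last cluster before ubiquinone, had guides with 40 and 37, and NDUFV1, the flavin- and NADH-binding subunit, guides with 29 and 37. None of these reached the 60 reads of an enriched guide, and the median of the 75 member guides seen only after the sort was 37 reads, against 35 for protein-coding guides of that kind.

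The accessory subunits held the widest ratios in both directions. NDUFB8, a membrane-arm subunit (chromosome 10, 100523740 to 100530000, minus strand, hg38), had 2 well-read guides with ratios of opposite sign. Guide HGLibB_31489 went from 727 to 3156 reads, 4.51-fold higher (counting interval 4.16 to 4.89), while HGLibA_31529 went from 1376 to 352, 3.77-fold lower (counting interval 3.35 to 4.25). On the log2 scale they stood at 2.17 and -1.91, the former above and the latter inside the non-targeting range. Guides against the same gene thus had ratios of opposite sign. Their counting intervals both excluded a level count, but these intervals cover read counting only, and neither knockout was checked.

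NDUFA7 (chromosome 19, 8308768 to 8321375, minus strand), an accessory subunit of the matrix arm, had 286 reads before and 1135 after the sort for its best-read guide, 4.12-fold higher (counting interval 3.62 to 4.71), and 0 and 31 for another. NDUFA11 (chromosome 19, 5891276 to 5904006, minus strand), a membrane subunit, had the lowest ratio of all, -3.91, from a guide with 30 unsorted reads and 1 TRT-negative read. That guide sat at the minimum for a well-read guide, its counting interval ran from 4.80 to 1179-fold lower, and the other NDUFA11 guide seen had 0 and 48 reads.

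NDUFA2, a thioredoxin-like subunit of the matrix arm (chromosome 5, 140638740 to 140647771, minus strand), was the only member gene whose well-read guides were both lower after the sort. The first had 1170 and 347 reads, 3.25-fold lower (counting interval 2.88 to 3.67), the second had 903 and 290 (counting interval 2.63 to 3.44-fold lower), and a further guide had 0 and 29. Both log2 ratios, -1.70 and -1.58, lay inside the non-targeting range. NDUFB9 went from 575 to 1246 reads and NDUFC1 from 996 to 2080, with log2 ratios of 1.17 and 1.12, while NDUFB3 went from 2098 to 1253, NDUFA1 from 94 to 52 and NDUFB1 from 657 to 610. The other guides of NDUFB1 had 1 and 55, 0 and 52, and 0 and 35 reads, none of them enriched.

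Enriched guides of complex I were carried by genes of both arms, each with 0 unsorted reads. NDUFB10 had the highest count, 113 TRT-negative reads, 39.1-fold above the floor, and a second guide with a single read. NDUFA10 followed with 107 reads and no other guide seen. NDUFS4, an accessory subunit whose loss causes Leigh syndrome, had 105 reads, whereas its well-read guide was level at 591 and 566.

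NDUFA12, which docks late in assembly, had 94 reads, and its other guide went from 725 to 1569 (log2 ratio 1.17, within the non-targeting range). NDUFA8 had 94 reads and another guide with 30, both absent before the sort. NDUFB6 had 64 reads and NDUFA9 60, each as the sole guide seen. Of the enriched complex I genes that also had a well-read guide, NDUFA12 had the highest ratio for it and NDUFS8 the lowest, -0.95.

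The other enriched guides filed under complex I by name were those of NDUFA4 and NDUFA4L2. NDUFA4, despite its symbol, is now counted as a subunit of complex IV, and NDUFA4L2 is its hypoxia-induced paralog. The NDUFA4 guide had 0 and 73 reads, beside a level guide with 664 and 703, and the NDUFA4L2 guide had 0 and 86. Counted with complex IV, a choice made after seeing the data, they left complex I with 8 of 222 guides enriched (3.60%) and raised complex IV to 5 of 114 (4.39%). The background was 2.87%.

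Complex II, succinate dehydrogenase, links the respiratory chain to the citric acid cycle. None of its 24 guides was read in the unsorted library, which allows a share of up to 12.5% by the usual limit of 3 counts and 14.2% by the Clopper-Pearson interval, so that a difference from the background of 10.5% was not detectable with this number of guides. After the sort 4 guides were read (16.7%, interval 4.74% to 37.4%), 1 of SDHA (the flavoprotein) with 46 reads, 1 of SDHB (the iron-sulfur subunit) with 44, and 2 of SDHD (a membrane anchor) with 47 and 21. All were below the count needed for a call, and 0 of 24 guides were enriched (interval 0% to 14.2%, background 2.87%). The SDHA row lay beside an ANAPC15 row with the same counts in the table, as did 3 other member rows beside PTCD1, JPH2 and USP17L7, and whether these pairs share a guide sequence was not tested.

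Complex III, the cytochrome bc1 complex, had 6 of 60 guides read before the sort (interval 3.76% to 20.5%) and 10 after it (16.7%, interval 8.29% to 28.5%). The best-read guide of the whole machinery was directed at UQCRC2, a core protein of the complex (chromosome 16, 21953288 to 21983660, plus strand). It went from 7149 to 2233 reads, 3.08-fold lower (counting interval 2.94 to 3.24) and -1.62 on the log2 scale, which was inside the non-targeting range. A second UQCRC2 guide had 0 and 56 reads.

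This UQCRC2 guide with 7149 reads held 66.1% of the unsorted reads of complex III, so the summed normalised counts of the complex gave a TRT-negative to unsorted ratio of 0.713 with it and 1.47 without it. UQCRFS1, the Rieske iron-sulfur protein (chromosome 19, 29205320 to 29213151, minus strand), went the other way, from 633 to 1166 reads, 1.91-fold higher (counting interval 1.73 to 2.11). UQCRB went from 1567 to 2141 reads and had a guide with 0 and 50. UQCR11 went from 1099 to 1212 reads, 1.14-fold higher (counting interval 1.05 to 1.24). It also had the sole member guide read only before the sort, with 1 read, too few to show a loss. UQCR10 had 374 and 259 reads, beside a guide with 0 and 27. The 5 well-read guides had a median log2 ratio of 0.20 (SD 1.00).

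Enriched guides of complex III were those of UQCRH, the hinge protein, with 136 TRT-negative reads, and of its near copy UQCRHL, with 151. They were 2 of 60 guides (3.33%, interval 0.406% to 11.5%, background 2.87%). These were 47.1-fold and 52.3-fold above the floor of 3 unsorted reads. The counts differ, so the rows do not report the same guide, but a guide designed for either gene may also cut the other, which was not tested. No other guide of either gene was read.

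Complex IV, cytochrome c oxidase, had 7 of 102 guides read before the sort (6.86%, interval 2.80% to 13.6%) and 18 after it (17.6%, interval 10.8% to 26.4%). Enrichment was called for 3 (2.94%, interval 0.611% to 8.36%, background 2.87%). Of the subunits that surround the catalytic core, COX4I1 went from 789 to 252 reads, 3.02-fold lower (counting interval 2.61 to 3.49), with another guide at 0 and 48. COX5A had 81 and 54 reads, COX5B 646 and 486, and COX7B 398 and 261. These ratios all lay between -1.59 and -0.36. The well-read guides with ratios above 0 were those of COX7A2L, which links complexes III and IV in supercomplexes and is no core subunit, from 2301 to 4132 reads, and of COX6B2, a testis-type isoform, from 616 to 831. The median over the 7 well-read guides was -0.52 (SD 0.840).

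The enriched guides of complex IV belonged to COX7B2, COX7A1 and COX7A2L. COX7B2, a paralog of COX7B (chromosome 4, 46734827 to 46909245, minus strand), had the highest count of any member guide seen only after the sort. It had 437 reads from 0, 151-fold above the floor and 8.80 on the log2 scale. COX7A1, the heart and muscle isoform, had 119 reads. COX7A2L had 78 and, besides its well-read guide, one with 0 and 16. A guide without unsorted reads can only be higher after the sort. The log2 ratio of the well-read COX7A2L guide, 0.90, lay inside the non-targeting range.

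Complex V had 8 of 112 guides read before the sort (7.14%, interval 3.13% to 13.6%) and 22 after it (19.6%, interval 12.7% to 28.2%). Enrichment was called for 3 (2.68%, interval 0.556% to 7.63%, background 2.87%). In the F1 head, where ATP is made, ATP5B (now ATP5F1B, the catalytic beta subunit) had 2 well-read guides with ratios of opposite sign. One went from 295 to 495 and the other from 308 to 176 reads. ATP5A1 (ATP5F1A, the alpha subunit) had 298 and 205 reads, with further guides at 0 and 17 and 0 and 24. ATP5D (ATP5F1D, the delta subunit) went from 715 to 333 reads, 2.07-fold lower (counting interval 1.81 to 2.36), the lowest ratio of the complex at -1.05. ATP5E (ATP5F1E, the epsilon subunit) had guides with 0 and 29 and 0 and 8.

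None of the 28 guides of the F1 head was enriched (interval 0% to 12.3%, background 2.87%). In the peripheral stalk ATP5F1 (now ATP5PB) went from 696 to 929 reads, and ATP5O (ATP5PO), which joins the stalk to the head, had its enriched guide with 0 and 62. In the membrane part ATP5L (ATP5MG, subunit g) had an enriched guide with 0 and 124 reads, 42.9-fold above the floor. Its well-read guide went from 1399 to 1569, 1.16-fold higher (counting interval 1.08 to 1.25). The third enriched guide, with 0 and 64 reads, was that of ATP5S (now DMAC2L), which is no longer named as a subunit. Its relative ATP5SL (DMAC2), whose product serves complex I assembly, had a guide with 0 and 27. The median log2 ratio of the 7 well-read guides was 0.22 (SD 0.735).

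The 3 genes for the membrane-rotor subunit c encode the same mature protein from different precursors, so that the loss of any of them leaves the others in place. ATP5G1 (ATP5MC1) was not read, ATP5G2 (ATP5MC2) had a guide with 275 and 421 reads, and ATP5G3 (ATP5MC3) had guides with 0 and 34 and 0 and 11. None of the 18 guides was enriched (interval 0% to 18.5%, background 2.87%).

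Set side by side, the complexes gave overlapping counting intervals. Detection before the sort ran from 0 of 24 guides in complex II to 6 of 60 in complex III, and detection after it from 16.7% in complexes II and III to 26.5% in complex I. The enriched share ran from 0% in complex II and 2.68% in complex V to 4.27% in complex I, and in each of these 3 shares every pair of intervals overlapped. Median log2 ratios of well-read guides were -0.19 for complex I (18 guides, SD 1.53), 0.20 for complex III, -0.52 for complex IV and 0.22 for complex V, and complex II had no such guide. All 4 medians lay above the -0.64 of all well-read protein-coding guides by value, and these differences were not tested. Single well-read guides lay on both sides of -0.64 in each of these complexes. Their ratios ran from -3.91 to 2.17 in complex I and -1.62 to 0.93 in complex III. They ran from -1.59 to 0.90 in complex IV and -1.05 to 0.80 in complex V. Summed normalised counts gave TRT-negative to unsorted ratios of 1.33 for complex I, 0.713 for complex III, 1.46 for complex IV and 1.21 for complex V. Single guides weighed heavily on these sums. A COX7A2L guide held 4132 of the 6994 TRT-negative reads of complex IV, and an NDUFB8 guide 3156 of the 16237 of complex I. The ratio of summed counts was 1.13 over all members, 1.36 without the abundant UQCRC2 guide, and 1.01 over all protein-coding guides.

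Genes with a restricted isoform were compared with their widely expressed counterparts. The restricted forms COX4I2, COX6A2, COX6B2, COX7A1, COX7B2, COX8C and NDUFA4L2 had 3 of 42 guides enriched (7.14%, interval 1.50% to 19.5%). Their counterparts COX4I1, COX6A1, COX6B1, COX7A2, COX7B, COX8A and NDUFA4 had 1 of 42 (2.38%, interval 0.0603% to 12.6%). Both intervals contained the background of 2.87%. COX4I2, the lung isoform, had guides with 149 and 73, 0 and 55, and 0 and 26 reads. COX6A2, the muscle isoform, had 1 guide with 0 and 49 reads, and the second COX6B2 guide seen had 0 and 37. COX6A1 had 1 guide with a single TRT-negative read, and COX8A 1 with 0 and 39.

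Several members chosen by symbol do not encode a subunit of the complex they were filed under, or are copies or fusions of other loci. These 9 genes were ATP5S, ATP5SL, ATP5J2-PTCD1, NDUFC2-KCTD14, COX7A2L, NDUFA4, NDUFA4L2, UQCRHL and ATP5L2. They held 5 of the 18 enriched guides on 54 guides (9.26%, interval 3.08% to 20.3%, background 2.87%). The group was put together with the enriched genes in view and its share is a description. Without it 13 enriched guides were left among 478 guides (2.72%). The annotated readthrough locus ATP5J2-PTCD1 had a guide with 1 and 61 reads, identical to a PTCD1 row, and another with 0 and 10. ATP5J2 itself had a guide with 3 TRT-negative reads, and ATP5L2, a copy of ATP5L, one with 0 and 26.

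Agreement between guides could be examined in few genes. Of the 3 member genes with at least 2 well-read guides, NDUFA2 had both below 0, while NDUFB8 and ATP5B had a guide on either side. Of 1963 protein-coding genes with at least 2 well-read guides, 984 (50.1%) likewise had guides on both sides of 0, and the median gap between the highest and the lowest ratio in a gene was 1.40 on the log2 scale. Signs depend on the reference. Both ATP5B ratios, 0.80 and -0.75, lay above the -0.89 median of well-read non-targeting guides, while those of NDUFB8 lay on either side of it. Agreement around that median was not computed.

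Factors that build the complexes, with cytochrome c, were taken as a second list of 49 genes, all of which were in the table (3 under older symbols). Of their 294 guides 26 were read before the sort (8.84%, interval 5.86% to 12.7%) and 73 after it (24.8%, interval 20.0% to 30.2%). Enrichment was called for 12 (4.08%, interval 2.13% to 7.02%, background 2.87%). Each of these 12 was again the only enriched guide of its gene. Their 24 well-read guides had a median log2 ratio of -0.87 (SD 1.38). Of these, 3 lay above the non-targeting range (12.5%, interval 2.66% to 32.4%, background 5.66%). Below it lay 1 (4.17%, interval 0.105% to 21.1%, background 3.75%). Both intervals contained the background.

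Mitochondrial ribosomal proteins, which make the subunits encoded in the mitochondrion, were described as a further set. Of their 454 guides against 76 genes 44 were read before the sort (9.69%, interval 7.13% to 12.8%) and 92 after it (20.3%, interval 16.7% to 24.3%). Enrichment was called for 9 (1.98%, interval 0.910% to 3.73%, background 2.87%). Their 39 well-read guides had a median log2 ratio of -0.84 (SD 1.31). The well-read respiratory subunits stood at -0.33, above either list by value, and the difference was not tested.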

How the data were processed

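Guide cassettes were amplified from genomic DNA of TRT-negative and of unsorted SK-OV-3 reporter cells and sequenced as 1 library each. Per guide, the authors deposited raw read counts. They also deposited normalised counts, a signal that is the raw count times 0.982 for unsorted and 1.02 for TRT-negative cells. The submitters' processing notes name MAGeCK and hg38; read assignment to guides is not given in the sources used here. MAGeCK tables deposited with them hold the authors' own comparison (scores, p-values, log ratios and ranks) and were not used.

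Members were found by symbol. The log2 ratio of the deposited normalised counts was computed with a pseudocount of 1, thresholds were taken from non-targeting guides, and well-read guides had at least 30 unsorted raw reads. Folds against 0 unsorted reads used a floor of 3 reads, which covers read sampling only, so they are no lower limits on a change. No difference was tested, since there were no replicates. Genes named were those with an enriched guide, at least 3 well-read guides (0 genes), the extreme well-read guides of each complex, central subunits, isoforms and copies, and symbols that mark no subunit; some of them are not reported here. Members and lists were chosen with earlier results of these data known. Positions are from GENCODE 44 on hg38, and current symbols from RefSeq. Alternatives covered scaling, pseudocount, sub-library, count minimum, threshold and membership. Python 3.11.15, numpy 2.4.6, pandas 2.3.3 and scipy 1.17.1 were used.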

Additional observations from a re-analysis of the deposited data

How the results depend on the processing

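Of 303 recomputed values, 290 stayed within the 95% interval of the reported one. This count is no measure of robustness. It includes values that an alternative could not change, such as those of complex II when NDUFA4 and NDUFA4L2 were counted as complex IV. Some intervals were also very wide, as with 0% to 52.2% for the share of well-read complex III guides above the non-targeting range. With counts scaled to the non-targeting guides, whose median is -0.89, the ratio of every guide with TRT-negative reads rose. The median of well-read members turned from -0.33 to 0.55, those of complexes I and IV to 0.70 and 0.36, those of complexes III and V moved to 1.08 and 1.11, and that of all well-read protein-coding guides turned from -0.64 to 0.25; the members stayed above the last. With the call set at the 99th percentile, 2 member guides were enriched (0.376%, background 0.499%), those of COX7B2 and UQCRHL, with 0% in complexes I and V. The low NDUFA11 guide was lost (0% of members and of complex I) with a pseudocount of 5, in sub-library A, which does not hold it, and with at least 100 unsorted reads. The sign of some medians also differed between sub-libraries: in A it was above 0 for all members (0.17, 18 guides) and complex I (0.14, 7 guides), and in B it was below 0 for complex V (-0.48, 5 guides). In sub-library B, 1.96% of complex IV guides were read before the sort. Without the abundant UQCRC2 guide, chosen after seeing the data, the median of well-read members was -0.19. No paired analysis was possible because each condition has 1 library. With 37 well-read guides, and 0 to 18 per complex, small shifts could not be seen.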
